A study of Homo sapiens with 9 samples.

Results

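Amino acids enter, leave and move within cells through solute carriers, and 7 carrier families that hold most of these transporters were examined across the arrays. The members were every gene whose symbol places it in the SLC1, SLC3, SLC6, SLC7, SLC36, SLC38 or SLC43 family, which gave 59 of the 33616 genes with a named row, on 62 of 36176 rows. SLC6 had 18 members, SLC7 had 13, SLC38 had 12, SLC1 had 7, SLC36 had 4, SLC43 had 3 and SLC3 had 2. A further 1 symbol of these families in the RefSeq gene table was not analysed here. The rule reads symbols only, and the families were picked with earlier results of these data known.

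The arrays compared HCN-2 cells, a human cortical neuronal line from a repository, that had been transfected with 1 of 3 synthetic RNAs, a mimic of miR-140-3p, one of miR-126-5p or the scrambled control, with 3 arrays in each group and 9 in all. Every group received 3 μL of its 20 μM RNA with the same transfection reagent, and RNA was taken after 24 h, so the control cells were transfected too. The 3 arrays of a group carry replicate numbers, but no source says whether the cultures were separate. Every p-value here therefore measures only the spread between these arrays, which may be technical. The chip is called Clariom S in the methods, with WT-Plus labeling, and Clariom D in the deposited description, with amplification before labeling. Values are log2 signals, 1 unit being a doubling, and the number of arrays limits their precision.

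The label of the cells was set against lists of marker genes, each placed above or below 5.03, the median of all 138745 rows of the table, which 22337 of the 36176 tested rows exceeded. Of 9 neuronal markers measured, 4 lay above it. NEFM and MAP2 had control means of 12.88 and 9.44, RBFOX3 and SYN1 lay just above the median at 5.36 and 5.24, and DCX, STMN2, SNAP25, ELAVL4 and NEFL lay below it, at 4.76, 4.58, 4.20, 3.89 and 3.70. Of 7 fibroblast markers 6 lay above it, with control means from 9.94 for FAP to 17.70 for COL1A2, and THY1 was at 4.87. Of 7 astrocyte markers 4 lay above it, GJA1, ALDH1L1, SLC1A2 and SLC1A3, whereas GFAP, AQP4 and S100B were at 4.16, 4.85 and 4.05. The mean of the neuronal markers ran from 5.95 to 6.08 over the control arrays, from 5.90 to 6.03 after miR-140-3p and from 5.86 to 5.90 after miR-126-5p. That of the fibroblast markers ran from 14.11 to 14.43, from 14.29 to 14.43 and from 14.24 to 14.34. In bulk RNA of this kind, fewer cells of a type and less RNA per cell cannot be told apart.

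The families divide the work by substrate and by membrane. SLC1 carriers take up glutamate or exchange small neutral amino acids, SLC6 carriers use sodium and chloride to take up transmitters and other small molecules, and SLC38 carriers move glutamine and its neighbours. SLC7 light chains act as exchangers once bound to an SLC3 heavy chain, and SLC43A1 and SLC43A2 release large neutral amino acids. SLC36A1, SLC38A7 and SLC38A9 sit in the lysosome, where amino acids are sensed by the kinase complex mTORC1. When amino acids run short, the kinase GCN2 raises the transcription factor ATF4, which is known to switch on several of these carriers together with amino acid synthesis genes.

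The 2 mature microRNAs that the mimics are named after are printed below from RefSeq (GRCh38.p14), because all comparisons rest on them. hsa-miR-140-3p lies at chr16:69933142-69933162 and hsa-miR-126-5p at chr9:136670616-136670636, both on the plus strand. Capitals mark the seed, bases 2 to 8 from the 5′ end, and the 2 seeds differ.
hsa-miR-140-3p: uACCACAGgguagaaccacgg
hsa-miR-126-5p: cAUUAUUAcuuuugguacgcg

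Promoter windows from RefSeq, from 250 bases before to 50 bases after an annotated start, were found for 45 of the 59 members. Each was searched on both strands for TGATGNAA, the element that ATF4 binds with C/EBP partners, for TCACGTGA, a palindromic E-box of the kind read by TFEB, and for the core of the interferon-stimulated response element, GAAA and GAAA with any 2 bases between. No matches overlapped in the stretches printed here. TGATGNAA was present in 6 of the 45 members (13.3%), against 4.46% of 27305 genes and 3.62% of all windows. The 45 members had 67 windows and the 27305 genes 35116, so members had more windows per gene in which to match. The share of member windows with a match was not computed, for this or the other motifs. TCACGTGA was present in 1 member, SLC36A1 (2.22%), against 1.18% of genes and 0.98% of windows. The interferon element was present in 2 members (4.44%), SLC38A4 and SLC7A7, against 4.38% of genes and 3.57% of windows. These matches describe letters in a window, and binding at them was not measured.

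The 6 members with TGATGNAA were SLC1A3, SLC1A4, SLC1A5, SLC3A2, SLC7A1 and SLC38A1. Of these, SLC1A4 and SLC3A2 passed the unadjusted thresholds described below in some comparison, as 16 of all 59 members did. A link between the motif and the calls was not tested. The matched stretches of 4 members are printed with the motif, or its reverse complement, in capitals. SLC1A4 is at chr2:64989381-64989410 (plus strand), SLC3A2 at chr11:62881719-62881748 (plus), SLC1A5 at chr19:46784893-46784922 (minus) and SLC36A1 at chr5:151447583-151447612 (plus), all in GRCh38.p14. In SLC1A4 and SLC3A2 the motif reads on the strand opposite to the gene.
SLC1A4: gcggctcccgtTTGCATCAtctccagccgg
SLC3A2: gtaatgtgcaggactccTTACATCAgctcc
SLC1A5: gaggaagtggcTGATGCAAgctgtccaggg
SLC36A1: gggcggtgggaTCACGTGAtgaggtccgga

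No transporter gene of the 7 families passed the test after adjustment, although arrays of some members lay well apart. At an adjusted p of 0.05 by limma, 0 of 59 members passed in any of the 3 comparisons. Of all rows tested, called all rows from here on, 0.238% passed for miR-140-3p against control, 0.379% for miR-126-5p against control and 0% for mimic against mimic. Counts below therefore use the thresholds of the study, an unadjusted p under 0.05 with a log2 difference beyond 0.32 in either direction, and a member past them is called higher or lower at the unadjusted thresholds. On that rule 16 members passed in at least 1 comparison and 43 in none. The share of all rows that passed in at least 1 comparison was not computed, so the 16 cannot be set against a background.

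With miR-140-3p, 3 members were higher at the unadjusted thresholds (5.08%, against 3.35% of all rows) and 3 were lower (5.08%, against 5.16%), so the share of lower members was close to the background. SLC6A17, SLC7A8 and SLC7A9 were the higher members, and SLC1A4, SLC38A9 and SLC38A11 the lower ones. With miR-126-5p, 0 members were higher (3.57% of all rows were) and 9 were lower (15.3%, against 6.83%). The 9 were SLC1A4, SLC3A2, SLC7A5, SLC7A6, SLC7A14, SLC36A1, SLC38A7, SLC38A9 and SLC38A11. SLC1A4, SLC38A9 and SLC38A11 were thus lower with both mimics, which share the 3 control arrays. The share of all rows lower with both mimics was not computed, here or in later paragraphs. With quantile normalization applied again, SLC1A4 was the only member lower with both.

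The counts moved with single arrays. For miR-126-5p the 9 lower members became 13 without control replicate 1, 2 without control replicate 3 and 5 without control replicate 2. They became 4 without miR-126-5p replicate 1 or replicate 3. The shares of all rows were not computed under these alternatives, here or in later paragraphs. Quantile normalization applied again left 4 lower and 1 higher member with miR-126-5p, and a linear model without moderation left 5 lower. For miR-140-3p the 3 higher members became 1 without miR-140-3p replicate 1 and 7 without control replicate 3, and the 3 lower members became 1 without miR-140-3p replicate 2 and 8 without control replicate 1.

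A second reading asked only whether the 3 arrays of one group lay wholly above or below those of the other. With miR-126-5p, 10 members lay wholly below the control (16.9%, against 11% of all rows) and 4 wholly above (6.78%, against 5.55%). With miR-140-3p, 1 lay wholly below (1.69%, against 7.48%) and 2 wholly above (3.39%, against 4.72%). The median member difference from the control was 0.001 for miR-140-3p, beside -0.021 for all rows, and -0.046 for miR-126-5p, beside -0.037. After quantile normalization again the miR-126-5p median was 0.014 for the members, beside 0.006 for all rows. Among the 39 members above the median of the whole table, 5.03, the medians were -0.082 and -0.153, beside -0.045 and -0.066 for the tested rows above it. The other 20 members had medians of 0.126 and 0.0845, beside 0.017 and 0.003 for the tested rows below it.

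**Figure D1:**
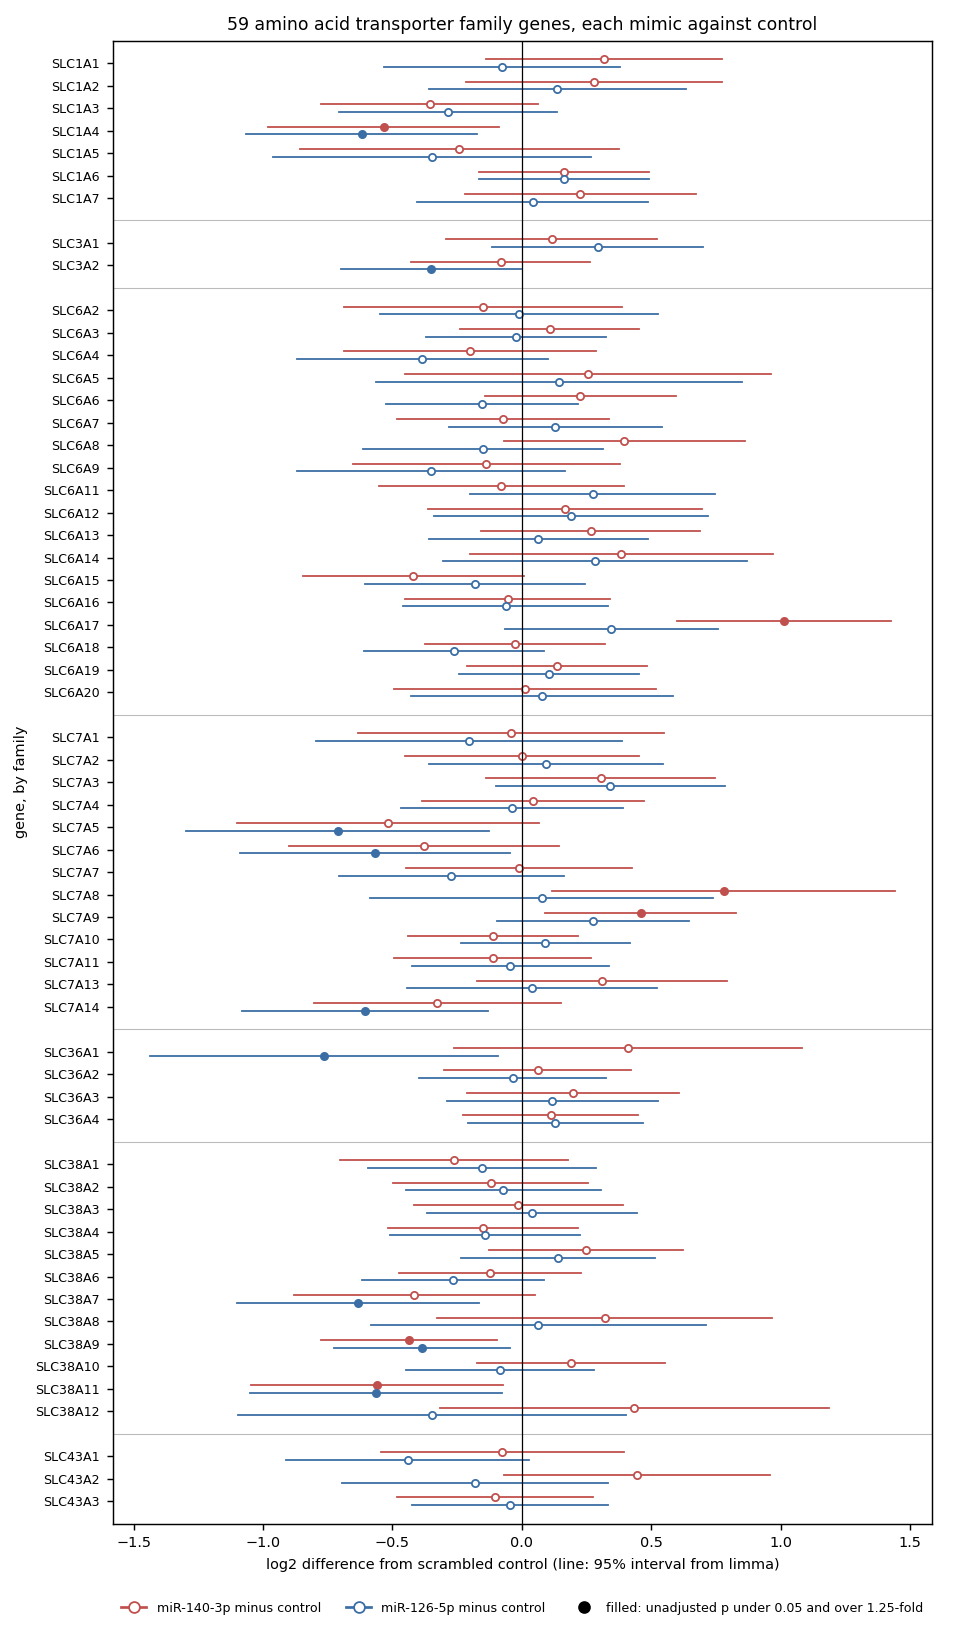
Log2 difference from the scrambled control for each of the 59 members, grouped by family, in the 2 mimic groups of 3 arrays, with 95% intervals from limma as lines and filled points past the unadjusted thresholds. SLC6A17 reached 1.01 with miR-140-3p, and no member passed an adjusted p of 0.05.

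Among the SLC1 carriers, 1 of 7 was lower at the unadjusted thresholds with each mimic, SLC1A4 in both comparisons, and 0 were higher. For miR-140-3p, 5.16% of all rows were lower and 3.35% higher. The miR-126-5p shares were 6.83% lower and 3.57% higher. A family of 7 is too small to be set against these shares. SLC1A4, or ASCT1, exchanges alanine, serine and cysteine. Its control arrays read 8.04, 8.68 and 8.73, its miR-140-3p arrays 8.0, 7.69 and 8.15, and its miR-126-5p arrays 7.89, 7.90 and 7.80. All miR-126-5p arrays lay below the lowest control array, whereas 1 miR-140-3p array lay above it. The log2 differences were -0.53 (SE 0.205, adjusted p = 0.52 by limma) and -0.62 (SE 0.205, adjusted p = 0.317). Without control replicate 1, the lowest of its group, they were -0.75 and -0.84. Over all single-array omissions they ran from -0.754 to -0.404 and from -0.839 to -0.496. The miR-140-3p call was lost without miR-140-3p replicate 2, control replicate 2 or control replicate 3.

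The stretch of the SLC1A4 promoter that ends with the ATF4-type element runs over chr2:64989149-64989399 on the plus strand (GRCh38.p14) and comes from 1 of the 2 windows of the gene. It is shown because SLC1A4 was one of the 3 members lower with both mimics. The capitals mark the reverse complement of TGATGNAA.
SLC1A4 promoter: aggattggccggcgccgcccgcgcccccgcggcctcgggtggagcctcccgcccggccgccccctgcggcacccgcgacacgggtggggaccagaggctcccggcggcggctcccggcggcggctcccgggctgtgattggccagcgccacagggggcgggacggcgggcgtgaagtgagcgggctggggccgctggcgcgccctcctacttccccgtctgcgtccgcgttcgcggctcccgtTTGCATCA

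SLC1A5, or ASCT2, the exchanger through which many growing cells take up glutamine, did not reach the unadjusted thresholds with all 9 arrays. Its values were 9.22, 10.30 and 10.48 in the control, 9.78, 9.57 and 9.92 under miR-140-3p, and 9.37, 9.82 and 9.77 under miR-126-5p. Control replicate 1 lay below every mimic array and the other 2 control arrays above them all, and the differences were -0.24 and -0.35. Without control replicate 1 they were -0.63 (unadjusted p = 0.00865) and -0.74 (unadjusted p = 0.00333), past the unadjusted thresholds with both mimics. Over all single-array omissions the SLC1A5 differences ran from -0.632 to -0.002 and from -0.739 to -0.109, so other omissions brought them nearer to no difference.

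The 5 glutamate transporters of SLC1 gave 0 calls in any comparison with all 9 arrays, and 5 members are too few to set against the shares of all rows. SLC1A1, the carrier found on neurons and in kidney, had a mean of 10.47 ± 0.195 (SD, n = 3) in the control, with differences of 0.32 (miR-140-3p) and -0.08 (miR-126-5p, 0.084 after quantile normalization again). Without miR-140-3p replicate 1, at 11.27 against 10.50 and 10.58 on the other 2, the former was 0.074. SLC1A2 and SLC1A3, the main glutamate carriers of astrocytes, differed by 0.28 and 0.14 and by -0.36 and -0.29. Neither group pair was separated by its arrays for SLC1A2, whose values ran from 7.17 to 8.04 over all 9 arrays. SLC1A3 passed the unadjusted thresholds with miR-140-3p without miR-140-3p replicate 2 (-0.47) or control replicate 3 (-0.51). Over all single-array omissions that difference ran from -0.509 to -0.227.

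The SLC3 heavy chains and the SLC7 light chains form the exchangers that carry large neutral amino acids, cystine and dibasic amino acids. SLC3A2 (CD98, the heavy chain of most of them) read 15.16, 15.17 and 15.39 in the control, 15.28, 15.01 and 15.18 after miR-140-3p, and 14.76, 15.02 and 14.88 after miR-126-5p. The miR-126-5p arrays all lay below the control arrays and the miR-140-3p arrays overlapped both. Its differences were -0.08 and -0.35 (SE 0.16, unadjusted p = 0.0477, adjusted p = 0.475 by limma), and the latter was -0.18 after quantile normalization again.

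SLC7A5 (LAT1), the light chain that brings in leucine and other large neutral amino acids, was lower at the unadjusted thresholds with miR-126-5p. It read 8.02, 8.21 and 8.44 in the control, 8.43, 7.52 and 7.17 under miR-140-3p, and 7.65, 7.53 and 7.36 under miR-126-5p. With miR-126-5p the groups were apart, and with miR-140-3p one array lay among the control arrays and the other 2 below them. The differences were -0.71 (adjusted p = 0.386 by limma) and -0.52 (adjusted p = 0.634), and the difference between the mimics was 0.19 (adjusted p = 0.869). Without miR-140-3p replicate 1, the array among the controls, the miR-140-3p difference was -0.88 and passed too (unadjusted p = 0.000988). Over all single-array omissions that difference ran from -0.877 to -0.249. The miR-126-5p call was lost without miR-126-5p replicate 3, without control replicate 3 and in a linear model without moderation.

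SLC7A6, which exchanges dibasic for neutral amino acids with SLC3A2, read 8.96, 8.56 and 8.76 in the control, 8.83, 7.78 and 8.53 after miR-140-3p, and 8.26, 8.06 and 8.27 after miR-126-5p. Its miR-126-5p arrays lay below the control arrays, with a difference of -0.57. The miR-140-3p difference was -0.38, or -0.61 and past the thresholds without miR-140-3p replicate 1. Over all single-array omissions the latter difference ran from -0.605 to -0.078. SLC7A11 (xCT), the cystine and glutamate exchanger, had group means of 14.74 ± 0.223, 14.63 ± 0.226 and 14.70 ± 0.044 (SD, n = 3) for the control, miR-140-3p and miR-126-5p. Its differences of -0.11 and -0.05 had 95% intervals from -0.49 to 0.27 and from -0.43 to 0.34, which both hold 0, and the second was 0.14 after quantile normalization again.

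SLC7A8 (LAT2), which exchanges neutral amino acids of small and large size, was higher at the unadjusted thresholds with miR-140-3p. Its arrays read 11.44, 12.35 and 12.66 in the control, 13.50, 12.48 and 12.82 under miR-140-3p, and 12.20, 12.31 and 12.17 under miR-126-5p. With miR-140-3p 2 arrays lay above the control arrays and 1 among them, so the groups overlapped. The difference was 0.78 (adjusted p = 0.528 by limma), but 0.50 without miR-140-3p replicate 1 and 0.43 without control replicate 1. The miR-126-5p arrays differed from the control by 0.08.

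SLC7A9, the light chain of the kidney cystine transporter, was near the background on every array. It read 3.52, 3.41 and 3.59 in the control, 4.09, 4.11 and 3.69 after miR-140-3p and 3.79, 3.92 and 3.64 after miR-126-5p, while the background control rows had array means from 3.67 to 3.89. The miR-140-3p arrays lay above the control arrays. The difference of 0.46 is a difference between signals at that level.

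In the cationic amino acid transporter branch of SLC7, SLC7A14 was the 1 of 5 members past the unadjusted thresholds. It was lower with miR-126-5p, as were 6.83% of all rows, and 5 members are too few to set against that share. It read 9.14, 8.73 and 9.30 in the control, 9.07, 8.28 and 8.85 under miR-140-3p, and 8.33, 8.56 and 8.47 under miR-126-5p. The miR-126-5p arrays lay below the control arrays, and the miR-140-3p arrays ran from below them into the control range. Its differences were -0.61 and, with miR-140-3p, -0.33.

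The SLC6 family held the member with the largest difference from the control. SLC6A17 (NTT4), known from rodent brain as a carrier of neutral amino acids into synaptic vesicles, read 8.45, 8.80 and 8.80 in the control. It read 10.07, 9.50 and 9.52 after miR-140-3p and 9.10, 9.01 and 8.98 after miR-126-5p. The 3 groups did not overlap: the control arrays were lowest, the miR-126-5p arrays lay just above and the miR-140-3p arrays were highest.

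The SLC6A17 difference with miR-140-3p was 1.01 (SE 0.19, 95% interval 0.60 to 1.43), or 2.02-fold, with an unadjusted p of 0.00016. The adjusted p by limma was 0.0637 over all rows, and it was 0.0139 after quantile normalization again, 0.0368 with each array centred on its median, 0.0341 without dim rows and 0.0307 with an intensity trend. It ran up to 0.297 under the other alternatives. With miR-126-5p the difference was 0.35 (adjusted p = 0.567), and between the mimics it was 0.67 (unadjusted p = 0.00409, adjusted p = 0.456).

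**Figure D2:**
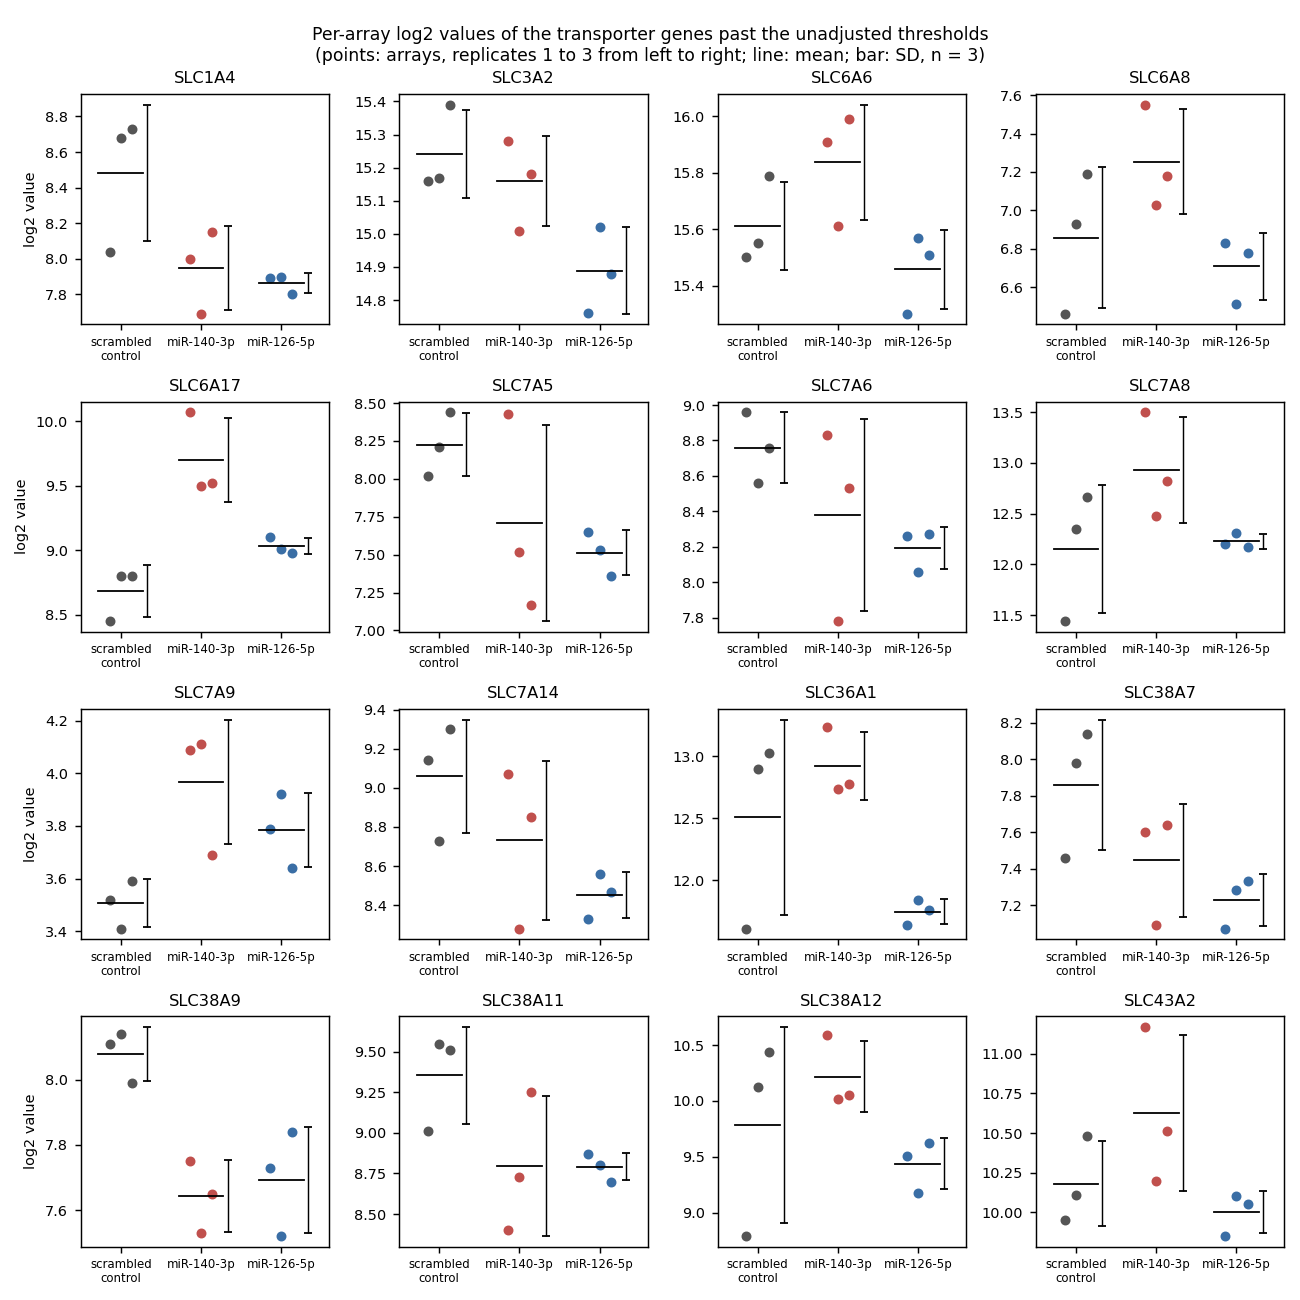
Log2 signal on each of the 9 arrays for the 16 members past the unadjusted thresholds in any comparison, with a point per array, a horizontal line for the group mean and a bar for the SD (n = 3). For SLC6A17 the control arrays lay from 8.45 to 8.80 and the miR-140-3p arrays from 9.50 to 10.07.

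The other SLC6 members gave 0 calls against the control with all 9 arrays. SLC6A6, the taurine transporter, read 15.50, 15.55 and 15.79 in the control, 15.91, 15.61 and 15.99 under miR-140-3p, and 15.30, 15.57 and 15.51 under miR-126-5p. SLC6A8, the creatine transporter, read 6.46, 6.93 and 7.19, then 7.55, 7.03 and 7.18, then 6.83, 6.51 and 6.78. For both genes all miR-140-3p arrays lay above all miR-126-5p arrays, and the control arrays overlapped both groups. The 3 monoamine transporters, which clear dopamine, noradrenaline and serotonin, differed from the control by -0.20 to 0.11 under miR-140-3p and by -0.38 to -0.01 under miR-126-5p.

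Of the 59 members, the lysosomal SLC36A1 gave the largest difference between the mimics. SLC36A1 (PAT1), which lets small amino acids out of the lysosome with protons, read 11.61, 12.90 and 13.03 in the control, 13.24, 12.74 and 12.78 after miR-140-3p, and 11.64, 11.84 and 11.76 after miR-126-5p. Every miR-140-3p array lay above every miR-126-5p array. The control group was split, with replicate 1 below all miR-126-5p arrays and the other 2 among the miR-140-3p arrays.

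Between the mimics SLC36A1 differed by 1.17 (SE 0.31, 2.26-fold, unadjusted p = 0.00247, adjusted p = 0.449 by limma). Against the control the miR-140-3p difference was 0.41 and the miR-126-5p difference -0.76 (adjusted p = 0.421). Without control replicate 1 these became -0.04 and -1.22, and the latter passed with an adjusted p of 0.0144 by limma. Without control replicate 3 the latter was -0.50. This was the only case in which leaving out 1 array brought a member past the adjusted threshold.

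The stretch of the SLC36A1 promoter shown here lies at chr5:151447353-151447602 on the plus strand (GRCh38.p14), in 1 of the 2 windows of the gene. The capitals mark TCACGTGA, which ends close to the annotated start.
SLC36A1 promoter: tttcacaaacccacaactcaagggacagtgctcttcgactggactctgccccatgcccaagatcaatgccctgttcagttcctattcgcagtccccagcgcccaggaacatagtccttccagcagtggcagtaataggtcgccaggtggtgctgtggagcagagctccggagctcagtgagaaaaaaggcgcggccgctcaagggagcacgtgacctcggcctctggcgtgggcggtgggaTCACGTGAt

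SLC38A7 (SNAT7), which exports glutamine and asparagine from the lysosome, read 7.46, 7.98 and 8.14 in the control, 7.60, 7.09 and 7.64 under miR-140-3p, and 7.07, 7.28 and 7.33 under miR-126-5p. The miR-126-5p arrays lay below all control arrays, with a difference of -0.63 (adjusted p = 0.326 by limma). With miR-140-3p the groups overlapped and the difference was -0.42, or -0.62 and past the unadjusted thresholds without control replicate 1. Over all single-array omissions that difference ran from -0.617 to -0.238.

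SLC38A9, the arginine sensor that signals to mTORC1 from the lysosome, has 3 rows on this chip, and they gave unlike values. The row with the highest mean read 8.11, 8.14 and 7.99 in the control, 7.75, 7.53 and 7.65 after miR-140-3p, and 7.73, 7.52 and 7.84 after miR-126-5p. Both sets of mimic arrays lay below the control arrays, and the differences were -0.44 and -0.39. The lowest row read 6.93, 7.36 and 6.94, then 5.71, 6.86 and 5.95, then 6.18, 6.12 and 5.63, again with all mimic arrays below the control.

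That lowest row differed by -0.90 (unadjusted p = 0.00646, adjusted p = 0.387 by limma) and -1.10 (unadjusted p = 0.00175, adjusted p = 0.174). The middle row read 6.22, 7.15 and 6.63, then 6.92, 6.44 and 7.11, then 6.87, 6.96 and 6.70, and differed by 0.16 and 0.18 with overlapping groups. The rows are separate probe sets, and which transcripts each measures was not given in the sources used here.

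**Figure D3:**
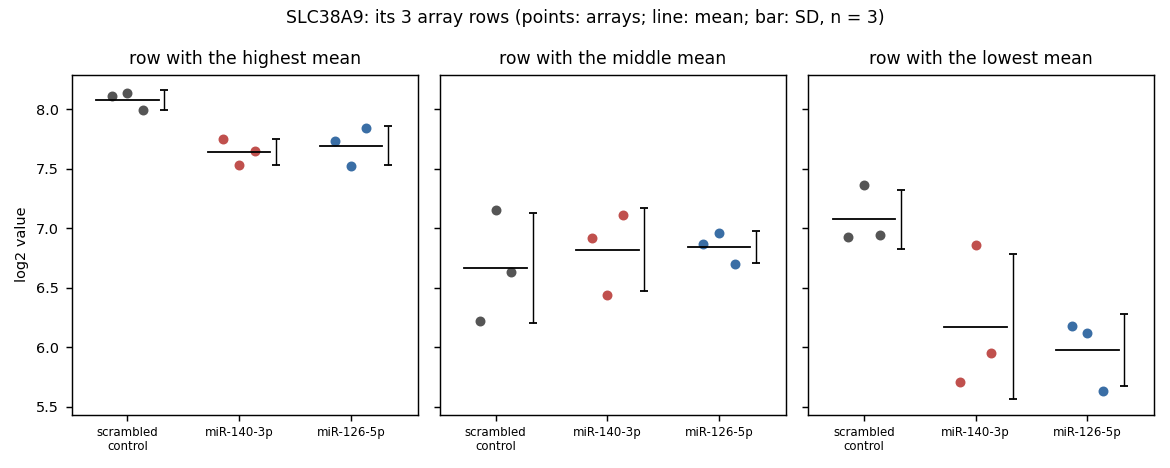
Log2 signal of the 3 SLC38A9 rows on each of the 9 arrays, with a point per array, a horizontal line for the group mean and a bar for the SD (n = 3). The highest and lowest rows lie below the control with both mimics, at -0.44 and -0.39 and at -0.90 and -1.10, and the middle row does not.

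SLC38A11, a carrier with little known of its transport, was lower at the unadjusted thresholds with both mimics. It read 9.01, 9.55 and 9.51 in the control, 8.40, 8.73 and 9.25 under miR-140-3p, and 8.87, 8.80 and 8.70 under miR-126-5p, and differed by -0.56 with each. The miR-126-5p arrays lay below the control arrays and 1 miR-140-3p array did not. Without miR-140-3p replicate 1 its difference from the control was -0.36. The system A carriers SLC38A1 and SLC38A2, which concentrate glutamine and alanine in cells, differed by -0.26 and -0.15 and by -0.12 and -0.07, with overlapping groups and 0 calls. After quantile normalization again their miR-126-5p differences were 0.016 and 0.11.

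Set directly against each other, the mimics gave 7 higher members with miR-140-3p (11.9%, against 5.07% of all rows) and 0 lower (3.99% of all rows were). The 7 were SLC6A6, SLC6A8, SLC6A17, SLC7A8, SLC36A1, SLC38A12 and SLC43A2. In 9 members the miR-140-3p arrays all lay above the miR-126-5p arrays (15.3%, against 9.12% of all rows), and in 0 they lay below (6.58% of all rows did). The lowest adjusted p by limma was 0.449, and 0 of the 36176 rows passed in this comparison. The median difference of the members was 0.108, beside 0.017 for all rows.

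SLC38A12, formerly TMEM104, read 10.59, 10.02 and 10.05 after miR-140-3p, 9.51, 9.18 and 9.62 after miR-126-5p, and 8.79, 10.12 and 10.44 in the control. SLC43A2 (LAT4), which releases leucine, isoleucine, methionine and phenylalanine, read 11.17, 10.20 and 10.51, then 9.85, 10.10 and 10.05, then 9.95, 10.11 and 10.48 in the same order. For both, the mimic groups were apart and the control arrays overlapped them, with differences between the mimics of 0.78 and 0.63. Without miR-140-3p replicate 1, the difference of SLC43A2 was 0.36 and that of SLC7A8 was 0.42.

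This comparison also depended on single arrays. The 7 higher members became 2 without miR-140-3p replicate 1, 3 without miR-126-5p replicate 1, 4 without its replicate 2 or replicate 3, and 11 without miR-140-3p replicate 2. A linear model without moderation left 3.

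Some genes of the amino acid starvation response were lower at the unadjusted thresholds. The list was written by hand with earlier results of these data known, and 22 of its 23 genes were measured. With miR-140-3p, 8 of the 22 were lower, where 5.16% of all rows were, and 0 were higher, and the list median was -0.305 beside -0.021 for all rows. With miR-126-5p, 12 of the 22 were lower, where 6.83% of all rows were, and 0 were higher, and the list median was -0.508 beside -0.037. The mean of the list ran from 10.24 to 10.56 over the control arrays, from 9.87 to 10.2 after miR-140-3p and from 9.81 to 9.88 after miR-126-5p, so both sets of mimic arrays lay below the control. Without control replicate 3, 4 genes were lower with miR-140-3p.

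The 8 genes lower with both mimics were ALDH1L2, ASNS, CBS, DDIT3, NUPR1, PHGDH, PSAT1 and TRIB3. ASNS, which makes asparagine, differed by -0.44 and -0.52, and PSAT1 and PHGDH, which make serine, differed by -0.62 and -0.73 and by -0.89 and -1.34. ATF4 itself, which is controlled largely at translation, differed by -0.06 and -0.26 and was not called.

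TRIB3, a pseudokinase induced by ATF4, read 8.0, 8.30 and 9.09 in the control, 7.92, 7.40 and 7.84 under miR-140-3p, and 6.56, 7.0 and 7.36 under miR-126-5p. Every miR-126-5p array lay below every array of the other groups. Under miR-126-5p TRIB3 fell by 1.49 (adjusted p = 0.0483 by limma), the only gene of the list past the adjusted threshold, and that call was lost under 11 of 18 alternatives, with adjusted p from 0.0551 to 0.339. Among the arrays, leaving out miR-126-5p replicate 1 or 2, any miR-140-3p array, or control replicate 2 or 3 removed it.

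**Figure D4:**
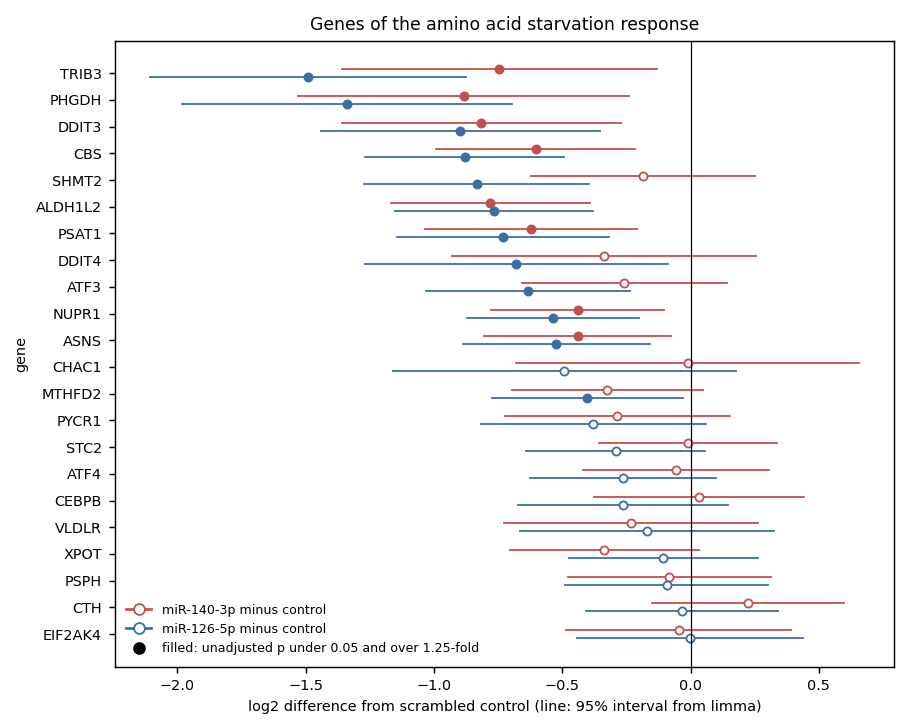
Log2 difference from the scrambled control for the 22 measured genes of the amino acid starvation response, in the 2 mimic groups of 3 arrays, with 95% intervals from limma as lines and filled points past the unadjusted thresholds. The list medians are -0.305 and -0.508.

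A list of genes for amino acid sensing, the mTOR kinase complexes and their regulators was counted in the same way. Not all of its genes are sensors. Of 31 measured of 33 listed, 3 were lower and 1 higher with miR-140-3p, and 8 were lower and 0 higher with miR-126-5p. Of all rows, 5.16% were lower and 3.35% higher in the first comparison and 6.83% lower in the second, so the 1 higher gene was near the background. The list had medians of -0.104 and -0.205 beside -0.021 and -0.037 of all rows. RICTOR, the defining subunit of mTORC2, and DEPDC5, a subunit of the GATOR1 brake on mTORC1, were lower with both. RICTOR read 11.02, 11.07 and 11.46 in the control, 10.34, 10.27 and 10.53 after miR-140-3p, and 10.27, 10.54 and 10.36 after miR-126-5p, with both mimic groups below the control and differences of -0.81 and -0.79 (adjusted p = 0.127 and 0.0979 by limma).

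The other 2 GATOR1 subunits, NPRL2 and NPRL3, were lower at the unadjusted thresholds with miR-126-5p, while their miR-140-3p differences were 0.05 and 0.03. They are named after their values were seen. NPRL2 read 7.01, 6.69 and 7.48 in the control, 6.98, 7.10 and 7.24 under miR-140-3p, and 6.26, 5.84 and 6.46 under miR-126-5p. The miR-126-5p arrays lay below all others, and the difference between the mimics was 0.92 (unadjusted p = 0.00127, adjusted p = 0.427 by limma).

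Of 14 listed carriers of amino acids or peptides outside the 7 families, 13 were measured. With miR-126-5p 1 passed the adjusted threshold, where 0.379% of all rows did, and with miR-140-3p 0 did, where 0.238% did. At the unadjusted thresholds 1 was lower with miR-140-3p (5.16% of all rows were) and 2 with miR-126-5p (6.83% were), and 0 were higher. SLC15A3, a lysosomal carrier of histidine and short peptides, read 6.10, 6.49 and 6.99 in the control, 5.38, 5.27 and 5.46 after miR-140-3p, and 5.27, 5.45 and 5.00 after miR-126-5p. All mimic arrays lay below all control arrays. Under miR-126-5p SLC15A3 fell by 1.29 (adjusted p = 0.0218 by limma), and the miR-140-3p difference was -1.16 (adjusted p = 0.0645). The miR-126-5p call was lost under 9 of 18 alternatives, with adjusted p from 0.0524 to 0.245, among them leaving out any miR-126-5p array or control replicate 2 or 3.

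Interferon-stimulated genes moved on the same arrays, by more than any of the 59 members. ISG15 read 10.81, 11.12 and 11.37 in the control, 7.03, 6.61 and 6.17 under miR-140-3p, and 6.03, 5.92 and 7.10 under miR-126-5p. MX1 read 16.45, 16.95 and 17.08, then 11.91, 10.63 and 11.33, then 8.28, 8.64 and 11.95. Both genes, chosen after their values were seen, read lower on every mimic array than on every control array, and their part in the transporter differences was not tested.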

How the data were processed

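The 9 arrays measured RNA of HCN-2 cells, grouped by the mimic and replicate number in the labels. The authors deposited 1 table of log2 values, a column per array. The notes submitted with it list Partek, RMA and Affymetrix Expression Console, in no order and without versions. RMA subtracts background, quantile-normalizes between arrays and condenses probes into rows, so a shift shared by most genes would be largely removed. The values have no count depth and no detection call.

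The table has 138745 rows. After 31 control rows, 36176 rows with exactly 1 symbol in the platform annotation were tested, while 1119 with more than 1 symbol and 101419 absent from it were left out. All 59 members matched RefSeq by Entrez identifier. The row with the highest mean stands for a gene with several rows. Differences were taken between groups within a row. Levels of different rows are not comparable, and markers and members were only placed above or below the median of the table.

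All 9 arrays entered 1 limma fit (version 3.58.1 under R 4.3.3, two-sided moderated tests) with 3 contrasts, Benjamini-Hochberg adjusted over the 36176 rows, which was tested on simulated data. The prior had 6.32 degrees of freedom. Named were members past the adjusted or unadjusted thresholds, the member of each family with the highest mean, 12 carriers with known roles, and list genes past the adjusted threshold or past the unadjusted ones with both mimics. Members and lists were chosen with earlier results of these data known, and the motif search was chosen after the values were seen.

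Alternatives were quantile normalization again, median centring, dim rows left out, every row tested, 2 groups per fit, an intensity trend with robust estimation, no moderation, a replicate block, the mean of a gene's rows and each array left out. Same-numbered arrays of different groups had deviations that correlated between -0.0609 and 0.107. These low values gave no sign that the numbers pair the arrays, but differently numbered arrays were not compared, so pairing is not settled. No target sites of the microRNAs were searched. Proteins, clinical samples and other assays of the study were not analysed here.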

Additional observations from a re-analysis of the deposited data

How the results depend on the processing

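Of 69 gene differences recomputed under 18 alternatives, 29 of 1239 values changed sign, in 21 of the differences. Under quantile normalization again, which makes the distribution of these rows alike on every array, 5 member differences reversed: with miR-126-5p SLC1A1 (0.084), SLC7A11 (0.14), SLC38A1 (0.016) and SLC38A2 (0.11), and between the mimics SLC38A11 (-0.047). Members below the control with miR-126-5p then numbered 29 of 59, against 35 as deposited. The member median was 0.014, beside 0.006 for all rows. The same setting gave 5 higher members with miR-140-3p, and 1 higher (SLC6A17, 0.50) and 4 lower members with miR-126-5p. It and 3 others, median centring, dim rows left out and an intensity trend, each put 1 member past the adjusted threshold by limma with miR-140-3p, SLC6A17. Averaging the rows of a gene turned SLC38A9 between the mimics to 0.041. Without moderation, 5 members were lower with miR-126-5p and 3 higher between the mimics. A replicate block left 4 higher members between the mimics, 8 lower with miR-126-5p, and, with miR-140-3p, 4 lower and 3 higher. Whether the replicate numbers pair the samples is not settled.

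Leaving out 1 array at a time, higher members with miR-140-3p ran from 1 to 7 and lower from 1 to 8. With miR-126-5p, members past the adjusted threshold ran from 0 to 1, higher from 0 to 1 and lower from 2 to 13. Between the mimics higher members ran from 2 to 11 and lower from 0 to 1. Starvation genes lower with miR-140-3p ran from 4 to 10, and with miR-126-5p from 10 to 13. The member medians ran from -0.057 to 0.138, from -0.182 to -0.021 and from 0.058 to 0.133. Differences that changed sign with miR-140-3p were SLC7A11 (-0.239 to 0.003), SLC36A1 (-0.042 to 0.67) and SLC38A12 (-0.064 to 0.762). With miR-126-5p they were SLC1A2 (-0.021 to 0.314), SLC6A8 (-0.35 to 0.014), SLC7A8 (-0.277 to 0.331), SLC7A11 (-0.152 to 0.071) and SLC38A2 (-0.182 to 0.021). Between the mimics they were SLC1A2 (-0.044 to 0.341), SLC1A3 (-0.187 to 0.031), SLC1A4 (-0.018 to 0.214), SLC1A5 (-0.037 to 0.199), SLC7A5 (-0.165 to 0.463), SLC7A6 (-0.039 to 0.488), SLC7A11 (-0.194 to 0.023), SLC38A1 (-0.252 to 0.05), SLC38A2 (-0.109 to 0.064), SLC38A9 (-0.139 to 0.021) and SLC38A11 (-0.226 to 0.202). With 3 arrays per group, the member SD within a group had a median of 0.204, and 6 members had means under the highest background control mean of 3.89, where a difference is hard to read.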

Other observations

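Control replicate 1 and miR-140-3p replicate 1 stood apart from their groups for several carriers. In 11 of 59 members (18.6%, beside 7.97% of all rows) control replicate 1 lay more than 0.5 log2 units below both other control arrays, and in 0 it lay that far above them. SLC36A1, SLC38A12, SLC1A5 and SLC7A8 were among the 11, with values there of 11.61, 8.79, 9.22 and 11.44. In 9 members (15.3%, beside 6.67% of all rows) miR-140-3p replicate 1 lay more than 0.5 units above both others of its group, among them SLC6A17, SLC7A5, SLC7A8, SLC38A12 and SLC43A2. On no other array did more than 3 members lie that far below the rest of their group, or more than 2 that far above. These shares were computed after the values were seen, and no cause was tested.

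SLC38A8 has 2 rows, and they differed in sign. Against the control the brighter row differed by 0.32 (miR-140-3p) and 0.06 (miR-126-5p), the dimmer by -0.10 and -0.18.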
